A study of Homo sapiens with 6 samples.

Results

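HT-29 cells, a line from a human colon adenocarcinoma, were transfected with siRNA pools against the long noncoding RNAs HOXA-AS3 or HOXB-AS3, or with a non-targeting control pool (siNT). The set described here is the genes for which all 4 knockdown (KD) libraries, 2 from siHOXA-AS3 and 2 from siHOXB-AS3, lay on one side of both siNT libraries in normalized expression. It holds 1486 of the 13034 genes tested, or 11.4%, with 603 genes above siNT and 883 below. If the 6 libraries were interchangeable, 4 would lie on one side of the other 2 in a share of 0.133 of orderings. That is also the smallest two-sided p of an exact permutation test of 4 against 2. At 11.4% the set was below that share, so its size alone does not show a shared response. The labels give an siRNA dose of 10 nM and harvest at 48 hours for all 6 libraries, whereas the study's methods state a higher dose and another extraction reagent. All groups share the cell line, the transfection reagent and the poly(A) library kit, and the control pool is common to both KDs. A value that is extreme in the siNT libraries therefore places a gene in the set from both sides at once. Nothing in the labels says that the libraries came from separate cultures, so p-values measure only the spread between these libraries. The values that chose the genes are given as a description without a test.

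HOX genes encode homeodomain transcription factors that sit in 4 clusters and pattern the body axis, and the adult colon keeps expressing many of them. HOXA-AS3 and HOXB-AS3 are transcribed antisense to the central genes of the HOXA and HOXB clusters. In RNA interference the guide strand of an siRNA is loaded into Argonaute and directs cleavage of a fully matched RNA. Its seed, bases 2 to 8, can also pair with the 3' untranslated regions (3' UTRs) of other mRNAs and lower them to a small degree, which is why different siRNA pools against one pathway are often set side by side.

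The guide strands are shown because the pools share their control but not their seeds. The study lists 5 entries for siHOXA-AS3, of which 4 differ, and 3 duplexes for siHOXB-AS3. Each guide is written 5' to 3' with its seed in capitals. For siHOXA-AS3 it was taken as the reverse complement of the listed strand, and for siHOXB-AS3 it is the listed antisense strand without its overhang.
siHOXA-AS3 1: uUGUUCGCuauucugucuc
siHOXA-AS3 2: uUGUUCGGcccuuccauug
siHOXA-AS3 3: aGCUUCGCuguccuuuccu
siHOXA-AS3 4: uAACGAGUgcccugucuac
siHOXB-AS3 1: aCUUUGUCucccuuugucg
siHOXB-AS3 2: uUUCUUUCaugcccgacuc
siHOXB-AS3 3: uUUCCCUUcaccccuugac
No 7-base seed was shared between the pools, and 0 seeds were shared when only bases 2 to 7 were compared. Guides 1 and 2 of siHOXA-AS3 had the same bases 2 to 7. All 7 target sites matched exons of the 2 lncRNAs in GENCODE v29 on the plus strand of GRCh38. The siHOXA-AS3 sites lay at chr7:27155847-27155865, chr7:27152656-27152674, chr7:27154078-27154096 and chr7:27155265-27155283. The siHOXB-AS3 sites lay at chr17:48590450-48590468, chr17:48600494-48600512 and chr17:48590467-48590485, so that siRNAs 1 and 3 overlapped. Site 2 of siHOXA-AS3 was in 4 of 5 annotated transcripts and the other siHOXA-AS3 sites were in 1 of 5 each. Site 2 of siHOXB-AS3 was in 8 of 15 transcripts and the other siHOXB-AS3 sites were in 2 of 15.

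Total expected counts ranged from 15998518 to 26263938 per library. Of 12 colon epithelium markers, 10 had a mean FPKM of at least 1, with CDX1 and CDX2 below it. Their summed FPKM was 4680 and 5034 in siNT and between 3970 and 5935 in the KD libraries. None of the 7 fibroblast or 4 endothelial markers reached 1 FPKM, and among 8 immune markers LYZ and CD68 did, which epithelial cells also express. The siHOXA-AS3 libraries stood apart from each other. Their replicate difference had an SD of 0.73 on the log2 scale, against 0.43 for siNT and 0.37 for siHOXB-AS3. It correlated across genes with the GC content of the transcript (r = 0.72). The same correlation was -0.364 for siNT and 0.139 for siHOXB-AS3, so the shared control also carried a GC trend. Pooled fold changes after removal of each library's GC trend are given below beside some results, and the part of GC content was not tested further.

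Neither targeted lncRNA belonged to the set. HOXA-AS3 had 1.42 and 1.11 CPM (counts scaled to library size) in siNT, 0.507 and 0.701 in siHOXA-AS3, and 1.23 and 1.03 in siHOXB-AS3. The siHOXB-AS3 libraries overlapped siNT. Counts of 12 stood behind each siHOXA-AS3 value, and the difference of 0.92 on the log2 scale between the KDs did not pass the test (edgeR quasi-likelihood test, adjusted p = 0.287). HOXB-AS3 had 11.3 and 13.2 CPM in siNT, 11.1 and 12.2 in siHOXA-AS3, and 2.75 and 3.55 in siHOXB-AS3. It was lower in siHOXB-AS3 than in siHOXA-AS3 by 1.88 on the log2 scale (edgeR quasi-likelihood test, adjusted p = 0.0291), and the siHOXA-AS3 libraries overlapped siNT.

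In the pooled contrast, the mean of the KDs against siNT, edgeR's quasi-likelihood test called 0 of 13034 genes at an adjusted p below 0.05, or 0.0%. The smallest adjusted p was 0.129. At an unadjusted p below 0.05 there were 800 genes (6.14%), of which 557 were in the set, a share that the rule itself favors. DESeq2 called 56 genes and voom with sample quality weights called 56. After removal of each library's GC trend edgeR called 395 of 12694 genes (3.11%), of which 165 were higher and 230 lower. Without siHOXA-AS3 replicate 1 the count was 2792 and without siHOXA-AS3 replicate 2 it was 1366, a fit in which the remaining siHOXA-AS3 library is assumed to vary like the other groups. Calls in the pooled contrast thus depended on the siHOXA-AS3 libraries and on the tool.

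Genes with all KD libraries above siNT made up 4.63% of the genes tested, and genes with all below made up 6.77%. Most lay close to siNT. The separation, the distance between the nearest KD and siNT libraries, had a median of 0.091 log2 units for genes above and 0.112 for genes below. A separation of at least 1.5-fold was met by 19 genes above and 34 below, and a separation of at least 2-fold by 4 and 6. None of these 4 and 2 of these 6 were in rows of 1 gene with a mean of at least 1 FPKM, and the genes described next were taken from such rows. The split depended on the scaling. Genes above were 40.6% of the set on TMM-scaled CPM, 28.8% on TPM, and 53.1% once the GC trend was removed. With that trend removed 2292 genes met the rule, and 1100 of the 1430 genes of the set with a GC value stayed on their side. Before the filter on low counts 1837 of 17680 rows met the rule, and 1477 of these passed the filter. At the edge of the rule, MDN1, a ribosome assembly ATPase, had 45.1 CPM in its lowest KD library and 45.1 in its highest siNT library and fell just inside. MOSPD2, a membrane protein of the endoplasmic reticulum, had 22.2 in both and fell just outside.

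Among rows of 1 gene with a mean of at least 1 FPKM, the largest separation above siNT was that of DKK1, a secreted inhibitor of Wnt signaling. It had 43.9 and 46.3 CPM in siNT, 92.6 and 125 in siHOXA-AS3, and 105 and 146 in siHOXB-AS3. Its lowest KD library was 2.00-fold above the higher siNT library, and the pooled log2 fold change was 1.37 ± 0.22 (SE), or 1.36 with the GC trend removed. GALNT5, an enzyme that starts O-linked glycosylation, had 4.57 and 4.204 CPM in siNT, 8.15 and 9.82 in siHOXA-AS3, and 9.90 and 8.97 in siHOXB-AS3. The 4 KD libraries of GALNT5 lay within a narrow range. NCEH1, which hydrolyzes cholesterol esters, had 79.99 and 80.86 CPM in siNT, 126 and 133 in siHOXA-AS3, and 133 and 148 in siHOXB-AS3. Its siNT libraries were almost equal and the KDs were 1.68-fold higher on average.

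Other genes above siNT were less even between the KDs. MYL9, a myosin light chain of contractile fibers, had 0.599 and 0.618 CPM in siNT, 1.01 and 1.17 in siHOXA-AS3, and 3.53 and 3.65 in siHOXB-AS3, the last being the highest. GPR137B, a lysosomal membrane protein, had 8.43 and 7.91 CPM in siNT, 23.2 and 24.7 in siHOXA-AS3, and 12.9 and 13.1 in siHOXB-AS3, so it was highest in siHOXA-AS3. The long noncoding RNA LINC00941 had 47.7 and 49.5 CPM in siNT, 85.9 and 115 in siHOXA-AS3, and 78.4 and 73.6 in siHOXB-AS3. BHLHE40, a transcriptional repressor tied to stress and the circadian clock, had 16.6 and 14.3 CPM in siNT, and its KD libraries lay between 24.0 and 33.8. SLC6A9, a glycine transporter, had 16.1 and 19.7 CPM in siNT and between 28.7 and 43.3 in the KDs. CCRL2, a chemokine receptor-like protein, had 4.87 and 5.38 CPM in siNT and between 8.09 and 9.88 in the KDs. The pseudogene TOB2P1, FAM174A and ERP27, like MYL9, were under 5 CPM in every library, where few counts stand behind each value.

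**Figure D1:**
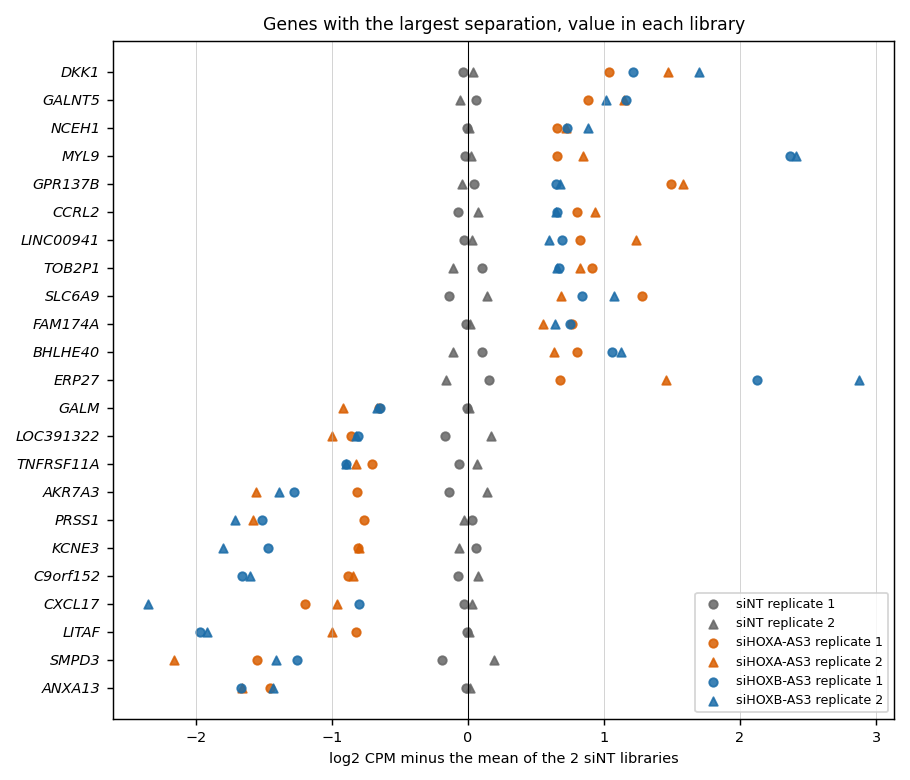
Value in each library of 12 genes above and 11 below siNT among those with the largest separation, as log2 CPM minus the mean of the 2 siNT libraries (x axis). Gray, orange and blue points are siNT, siHOXA-AS3 and siHOXB-AS3, circles are replicate 1 and triangles replicate 2. The KD points of DKK1 begin at 2.00-fold above siNT, and those of ANXA13 lie together below it.

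Among the same rows, the largest separation below siNT was that of ANXA13, an annexin of the intestinal epithelium. It had 92.4 and 94.3 CPM in siNT, 34.0 and 29.3 in siHOXA-AS3, and 29.2 and 34.5 in siHOXB-AS3. Every KD library was at least 2.67-fold below siNT and the KDs could not be told apart, with a difference of 0.01 on the log2 scale (95% interval -0.44 to 0.45). SMPD3, a neutral sphingomyelinase that makes ceramide, had 10.3 and 13.5 CPM in siNT, 3.97 and 2.57 in siHOXA-AS3, and 4.89 and 4.39 in siHOXB-AS3. Its pooled log2 fold change was -1.60 ± 0.24 (SE), or -1.55 with the GC trend removed. LITAF, a protein of late endosomes and lysosomes, had 177 and 178 CPM in siNT, 100 and 88.9 in siHOXA-AS3, and 45.4 and 47.1 in siHOXB-AS3. The KDs did not overlap each other either, and LITAF was lowest in siHOXB-AS3.

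KCNE3, a regulatory subunit of potassium channels in colon crypts, had 62.1 and 56.9 CPM in siNT, 33.9 and 34.1 in siHOXA-AS3, and 21.4 and 17.01 in siHOXB-AS3. C9orf152, for which no role is given here, had 46.7 and 51.8 CPM in siNT, 26.6 and 27.4 in siHOXA-AS3, and 15.5 and 16.1 in siHOXB-AS3. Both were lowest in siHOXB-AS3. PRSS1, a trypsinogen, had 18.4 and 17.6 CPM in siNT, 10.6 and 5.96 in siHOXA-AS3, and 6.25 and 5.42 in siHOXB-AS3. AKR7A3, an aldo-keto reductase, had 61.6 and 74.7 CPM in siNT and between 23.0 and 38.5 in the KDs. TNFRSF11A, the receptor RANK, had 9.66 and 10.6 CPM in siNT and between 5.37 and 6.17 in the KDs. GALM, an enzyme of galactose metabolism, had 21.1 and 21.4 CPM in siNT and between 11.2 and 13.6 in the KDs. CXCL17, a mucosal chemokine, and LOC391322 were under 2 CPM in every library. In bulk RNA, fewer cells of one kind and less RNA per cell cannot be told apart for any of them.

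The KDs were also compared with each other, a contrast that uses no siNT library. Membership still bears on it, since a gene with all KD libraries on one side of siNT is more likely to have KDs that lie close together, so the counts are a description. Between the KDs 204 genes were called (1.57% of the genes tested), and 10 of the 1486 genes of the set were among them, or 0.673%. Of these 10, 9 lay further from siNT in siHOXB-AS3 and 1 in siHOXA-AS3. Among genes below siNT, 50.7% lay further in siHOXB-AS3, as did 53.2% of genes above, beside 57.5% of all genes tested. LITAF was lower in siHOXB-AS3 than in siHOXA-AS3 by -1.03 ± 0.16 (SE, adjusted p = 0.0391). ERBB3, a receptor of the EGF receptor family, was lower there by -1.28 (adjusted p = 0.0275), with 184 and 162 CPM in siHOXA-AS3 against 190 and 187 in siNT and 72.3 and 70.2 in siHOXB-AS3. BMP2, a secreted signaling protein, was higher there by 1.73 (adjusted p = 0.0287), with 6.25 and 6.78 CPM in siHOXA-AS3 against 4.61 and 5.56 in siNT and 21.6 and 21.7 in siHOXB-AS3. For ERBB3 and BMP2 the siHOXA-AS3 libraries thus lay only just on the shared side. For DKK1 the difference was 0.20 (95% interval -0.35 to 0.76), for NCEH1 it was 0.12 (-0.25 to 0.48), and for GALNT5 it was 0.07 (-0.46 to 0.61), intervals that leave room for differences in either direction. All these adjusted p-values come from the same edgeR model. Leaving out either siHOXB-AS3 library took the count of calls between KDs to 0, leaving out either siNT library, which enters only through the shared spread, took it to 2, and leaving out either siHOXA-AS3 library took it to 4995 or 4813.

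**Figure D2:**
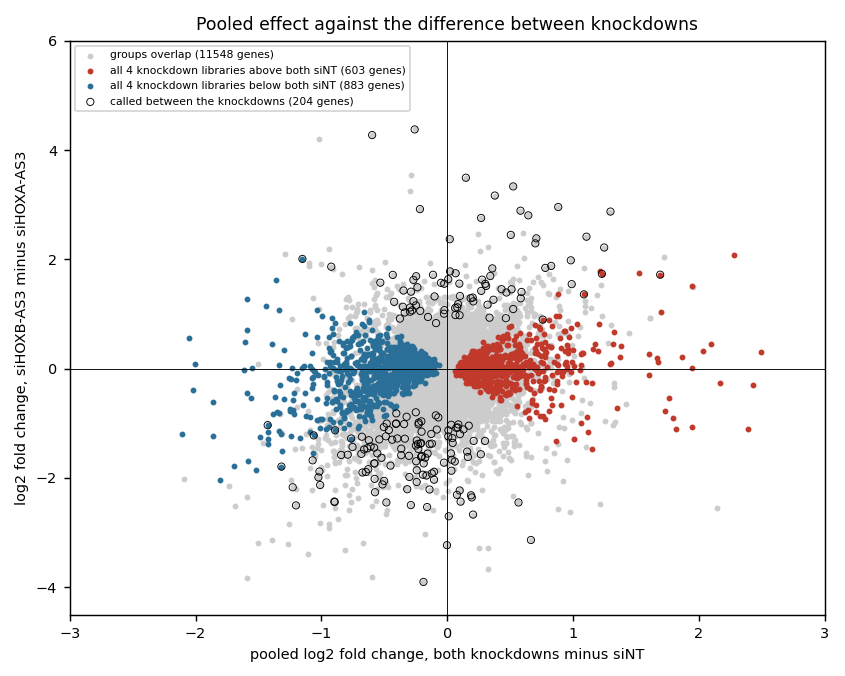
Each point is a gene tested, with the pooled log2 fold change of both KDs against siNT on the x axis and the log2 difference of siHOXB-AS3 minus siHOXA-AS3 on the y axis. Red and blue points are the 603 and 883 genes on one side, open circles are the 204 genes called between the KDs, and 17 genes lie beyond the axes. Most genes of the set lie near the horizontal line.

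Gene lists were read by counts, beside the 4.63% above and 6.77% below over all genes tested. Lists of cell cycle genes had members below siNT. Of 54 G2/M phase genes tested, 11 lay below (20.4%) and 0 above, and of 43 S phase genes 6 lay below and 1 above. In the pooled contrast edgeR called 0 genes of either list. At an unadjusted p below 0.05 there were 3 and 2 genes, beside 6.14% of all genes tested. With the GC trend removed it called 4 and 1, beside 395 of 12694 genes (3.11%). MKI67, the proliferation marker Ki-67, had 1248 and 1175 CPM in siNT, 796 and 767 in siHOXA-AS3, and 752 and 730 in siHOXB-AS3. Its pooled log2 fold change was -0.63 with the GC trend removed. MKI67 was not called in the main fit (edgeR quasi-likelihood test, adjusted p = 0.441). It was called with the GC trend removed and with voom and sample quality weights. The rule chose it on this same contrast, so these calls are no further support. CDC25C, a phosphatase that starts mitosis, had 37.3 and 42.1 CPM in siNT, 25.5 and 25.02 in siHOXA-AS3, and 31.8 and 32.5 in siHOXB-AS3. The median of the G2/M list relative to siNT was -0.56 and -0.15 log2 units in the siHOXA-AS3 libraries and 0.01 in each siHOXB-AS3 library, so the list as a whole was not below siNT in siHOXB-AS3.

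Epithelial transport and secretory genes also had members below siNT. Of 20 ion transport genes, 4 lay below siNT and 0 above. Besides KCNE3 these included CFTR, the chloride channel, with 15.1 and 15.5 CPM in siNT and between 8.14 and 12.6 in the KDs. ANO1, a calcium-activated chloride channel, had 136 and 147 CPM in siNT and between 77.4 and 123 in the KDs. Of 21 goblet and secretory genes, 4 lay below and 1 above. SPINK1, a trypsin inhibitor, had 114 and 126 CPM in siNT, 61.4 and 70.1 in siHOXA-AS3, and 86.7 and 80.2 in siHOXB-AS3. SPDEF, a transcription factor of goblet cells, had 20.3 and 23.1 CPM in siNT, 19.5 and 10.0 in siHOXA-AS3, and 5.42 and 4.91 in siHOXB-AS3. One siHOXA-AS3 library of SPDEF lay almost at the siNT level. The list medians were -0.07 in siHOXA-AS3 and -0.56 in siHOXB-AS3 for ion transport, and -0.06 and -0.79 for goblet genes. CA12, a carbonic anhydrase on the enterocyte list, had 51.7 and 52.6 CPM in siNT, 40.9 and 35.4 in siHOXA-AS3, and 18.5 and 14.2 in siHOXB-AS3. It was lower in siHOXB-AS3 than in siHOXA-AS3 by -1.22 (edgeR, adjusted p = 0.0476).

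Lists with members above siNT included growth factor outputs. Of 20 genes of ERK output and immediate early response, 4 lay above and 0 below. MYC, a growth regulator, had 231 and 217 CPM in siNT, 280 and 273 in siHOXA-AS3, and 436 and 520 in siHOXB-AS3. DUSP5, a phosphatase that acts on ERK, had 20.3 and 24.0 CPM in siNT and between 28.3 and 49.5 in the KDs. PHLDA1 had 303 and 263 CPM in siNT and between 347 and 506 in the KDs. Of 19 YAP/TEAD targets 4 lay above and 0 below. PTPN14, a phosphatase that restrains YAP, had 74.2 and 71.7 CPM in siNT, 89.0 and 92.0 in siHOXA-AS3, and 166 and 171 in siHOXB-AS3. LATS2, a kinase of the same pathway, had 18.5 and 19.5 CPM in siNT, 26.5 and 21.9 in siHOXA-AS3, and 37.4 and 44.8 in siHOXB-AS3. The list median was -0.01 in siHOXA-AS3 and 0.65 in siHOXB-AS3, and 7 of its genes were called between the KDs. Of 9 genes tested in the list of the EGF receptor family and ligands, 2 lay above siNT and 1 below. The 2 above were EREG and EGFR, and the 1 below was ERBB3, given earlier. The pooled fold change was positive for 5 of the 9 and negative for 4. EREG, a ligand of the EGF receptor, had 540 and 487 CPM in siNT and between 581 and 1096 in the KDs. EGFR itself had 228 and 221 in siNT and between 269 and 284 in the KDs.

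Of 27 lysosome genes 6 lay above siNT (22.2%) and 2 below. TPP1, a lysosomal peptidase, had 208 and 207 CPM in siNT and between 257 and 279 in the KDs, and CTSL, cathepsin L, had 3.82 and 3.77 in siNT and between 4.63 and 5.01. ATP6V1H, a subunit of the proton pump, had 57.0 and 56.6 CPM in siNT and between 63.9 and 76.9 in the KDs. These lay above siNT in every KD library while LITAF lay below. Of 36 interferon-stimulated genes 5 lay above and 2 below. The KDs went opposite ways in the median of this list. Relative to siNT, siHOXA-AS3 stood higher, at 0.13 and 0.27 log2 units. By contrast, siHOXB-AS3 stood lower, at -0.13 and -0.15, so the list as a whole did not rise in both KDs. IRF9, a factor of the interferon response, had 5.47 and 6.24 CPM in siNT and between 8.38 and 10.9 in the KDs. Of 16 genes of the RNA interference machinery 2 lay above and 1 below. AGO2, the Argonaute that cleaves, had 139 and 142 CPM in siNT and between 150 and 191 in the KDs. TNRC6B, a partner of Argonaute, had 40.1 and 38.3 CPM in siNT and between 24.6 and 32.3 in the KDs. Of 24 apoptosis regulators 4 lay below and 1 above.

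The lists of 75 or more genes tested had small counts on both sides. Of 112 genes of rRNA processing and ribosome assembly 7 lay above siNT (6.25%) and 3 below (2.68%). Of 78 cytosolic ribosomal protein genes 1 lay above and 0 below, of 75 mitochondrial ribosomal protein genes 2 lay below and 0 above, and of 75 respiratory chain genes 2 lay above and 1 below. For 39 of the 42 lists the library medians of KD and siNT overlapped. The HOXB cluster had all 4 KD medians below both siNT medians. So did the 8 metallothionein and zinc response genes, but narrowly, at -0.09 in siHOXA-AS3 replicate 1 against -0.08 in siNT replicate 1. The RNA interference machinery had all 4 above, also by a small margin.

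**Figure D3:**
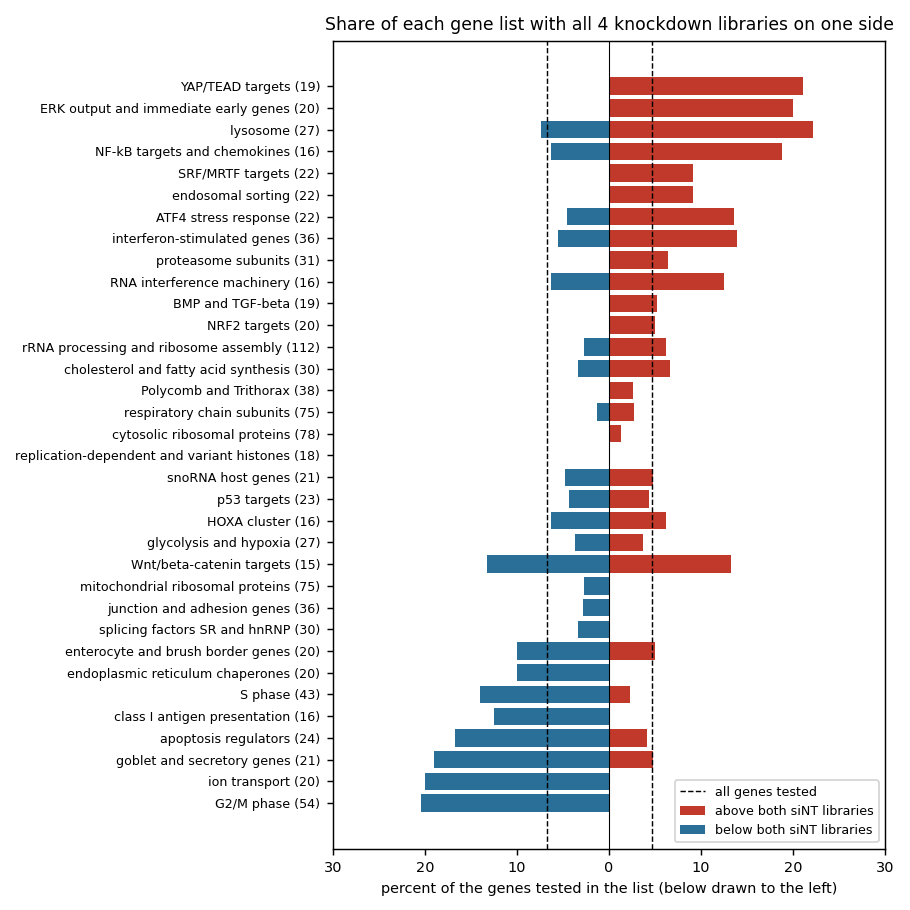
Percent of the genes tested in each list, for lists of at least 15, that had all 4 KD libraries above (red, right) or below (blue, left) both siNT libraries. The number of genes tested is in parentheses and dashed lines mark the 4.63% and 6.77% over all genes tested. The G2/M phase and ion transport lists reach furthest to the left and the lysosome list furthest to the right.

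Of 10 HOXB cluster genes tested, 8 lay below siNT and 0 above. These 8 are protein-coding, and HOXB5, HOXB6 and HOXB7 among them lie beside HOXB-AS3. HOXB8 had 36.1 and 34.6 CPM in siNT, 27.4 and 29.5 in siHOXA-AS3, and 18.9 and 18.8 in siHOXB-AS3. HOXB3 had 62.7 and 59.8 CPM in siNT, 46.5 and 45.4 in siHOXA-AS3, and 40.6 and 33.9 in siHOXB-AS3. HOXB5 had 30.9 and 32.4 CPM in siNT, 27.6 and 18.004 in siHOXA-AS3, and 17.3 and 14.1 in siHOXB-AS3. In all of these 8 genes except HOXB8, siHOXA-AS3 replicate 1 was the KD library nearest to siNT and so set their separation. The separations of the 8 genes ranged from the 0.08 of HOXB9 to the 0.36 of HOXB3. In the pooled contrast edgeR called 0 genes of the list, with 7 at an unadjusted p below 0.05, and DESeq2 called 1. The 7 included HOXB-AS3, which siHOXB-AS3 targets and which is not in the set, and the DESeq2 call was HOXB-AS3 too. With the GC trend removed edgeR called 4, which were HOXB5, HOXB6, HOXB3 and HOXB-AS3. Apart from HOXB-AS3 the genes called are in the set. The set was chosen on this same contrast, so their p-values and calls are no further support.

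Of 16 HOXA cluster genes tested, 12 had a negative pooled fold change and 1 of these lay below siNT in all 4 KD libraries. It was HOTTIP, a long noncoding RNA at one end of the cluster, which had 12.7 and 12.4 CPM in siNT, 9.12 and 7.31 in siHOXA-AS3, and 7.89 and 8.08 in siHOXB-AS3. HOTAIR, from the HOXC cluster, had 16.3 and 16.5 CPM in siNT and between 10.4 and 13.6 in the KDs. HOXA5, HOXA6 and HOXA7, which lie beside HOXA-AS3, had overlapping groups. Whether the counting used strand is not given in the sources used here, so reads of antisense pairs in these clusters may not be separable.

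**Figure D4:**
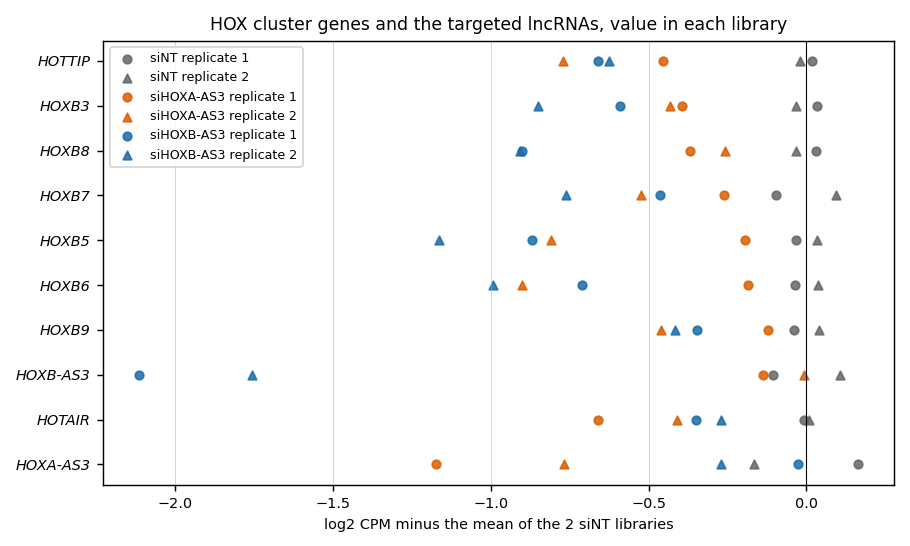
Value in each library of the 6 better-expressed HOXB protein-coding genes (mean FPKM of 10 or more), HOTTIP, HOTAIR and the targeted lncRNAs, as log2 CPM minus the mean of the 2 siNT libraries. Colors are groups and shapes replicates. The HOXB genes shown lie below both siNT libraries in every KD library, whereas HOXB-AS3 is low only in siHOXB-AS3.

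Because each gene of the set was placed there by all libraries at once, the replicates were also read separately. Each KD library was set against the siNT library of the same number, and whether same-numbered libraries belong together is not given. Genes for which both KDs differed from siNT by at least 1.5-fold in the same direction in replicate 1 were picked, and the replicate 2 libraries, which took no part in the choice, were read. Of 312 genes picked as higher, 94 had both KDs above siNT in replicate 2, or 30.1%, beside 30.7% of all genes tested. Of 304 picked as lower, 121 were below in replicate 2, or 39.8%, beside 33.8% of all genes. Picked in replicate 2 and read in replicate 1, the shares were 24.9% of 514 higher genes beside 28.2%, and 33.3% of 621 lower genes beside 29.5%. At 2-fold, 46.6% of 58 lower genes picked in replicate 1 were below in replicate 2. Picked at 2-fold in replicate 2, 33.6% of 119 higher genes were above in replicate 1, beside 28.2%. At 1.5-fold, genes picked as higher came back no more often than genes in general and genes picked as lower somewhat more often, and none of these shares was tested.

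**Figure D5:**
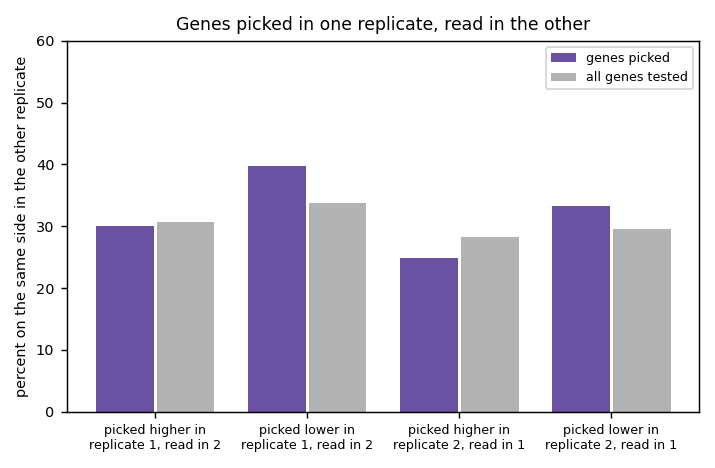
Percent of genes picked at 1.5-fold in both KDs in one replicate that lay on the same side in the other replicate (purple), beside the percent of all genes tested (gray). The purple bars stand at 30.1%, 39.8%, 24.9% and 33.3% and the gray bars at 30.7%, 33.8%, 28.2% and 29.5%.

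Features that did not enter the rule directly were compared with all genes tested. Transcript GC content had a median of 46.4% for genes above and 49.5% for genes below, beside 48.2% for all. The middle of the distribution was narrower in the set, from 45.1% to 55.0% for genes below and from 42.0% to 56.3% for all genes. That range is not independent of the rule, which favors genes whose replicates lie close. The siHOXA-AS3 replicate difference, which followed GC content, had a median size of 0.249 log2 units for genes above. It was 0.261 for genes below and 0.531 for all genes. Long noncoding RNAs made up 12.3% of the genes below, 7.30% of the genes above and 6.98% of all genes.

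Seed matches were counted in the longest GENCODE v29 3' UTR of each gene, as exact complements of the 7-base seeds printed above. Among genes below siNT, 11.7% held a match to a siHOXA-AS3 seed, beside 5.96% of genes above and 6.92% of all 11020 genes with a 3' UTR. A match to a siHOXB-AS3 seed was held by 53.1% of genes below, 46.0% of genes above and 45.6% of all. Matches to both pools were held by 60 genes below, or 8.56%, and by 24 genes above, or 4.62%, beside 4.34% of all. The median 3' UTR length was 1788 nt for genes below, 1778 for genes above and 1644 for all. Within 3' UTRs of 1000 to 3000 nt the shares with both were 6.83%, 4.64% and 3.57%. The order was the opposite among genes at least 1.5-fold apart, of which 2 of 21 below (9.52%) and 3 of 16 above (18.8%) held both, and 7 below (33.3%) and 11 above (68.8%) held a siHOXB-AS3 match. LITAF held matches to seeds of siHOXA-AS3 guide 1 and siHOXB-AS3 guides 1 and 3, and MKI67 and C9orf152 held a match to each pool. ANXA13, SMPD3, KCNE3, PRSS1, AKR7A3, GALM and DKK1 held none, whereas GALNT5 and MYL9, which lay above siNT, held matches to both pools. Over all genes the shifts were small. Genes with only a siHOXA-AS3 match had a median log2 fold change of -0.12 in siHOXA-AS3 and 0.01 in siHOXB-AS3. For genes with only a siHOXB-AS3 match the medians were 0.04 and -0.02. The siHOXA-AS3 libraries were uneven, with medians relative to siNT of -0.053 in replicate 1 and -0.301 in replicate 2 for siHOXA-AS3 matches only. Genes with no match to either pool had 0.068 and -0.136 in the same libraries. Whether seed pairing had a part in any of these values was not tested.

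Promoters of 250 bases before to 50 after the start, from RefSeq on GRCh38.p14, were searched on both strands for 5 motifs. The TATA box, spelled TATAAA, was in 5.82% of the 10007 promoters of genes tested, beside 8.11% of genes above siNT and 5.51% of genes below. The CCAAT box was in 37.0% of all, 35.5% of genes above and 40.1% of genes below. The AP-1 motif, spelled TGACTCA, was in 3.21%, 4.61% and 4.13%. The E-box, spelled CACGTG, was in 10.1%, 11.4% and 9.04%. The cyclic AMP response element, spelled TGACGTCA, was in 3.31%, 2.41% and 2.76%. The promoters of DKK1 (chr10:52314031-52314330, plus strand) and KCNE3 (chr11:74467500-74467799, minus strand) are shown as examples from each side, with any of these motifs in capitals.
DKK1: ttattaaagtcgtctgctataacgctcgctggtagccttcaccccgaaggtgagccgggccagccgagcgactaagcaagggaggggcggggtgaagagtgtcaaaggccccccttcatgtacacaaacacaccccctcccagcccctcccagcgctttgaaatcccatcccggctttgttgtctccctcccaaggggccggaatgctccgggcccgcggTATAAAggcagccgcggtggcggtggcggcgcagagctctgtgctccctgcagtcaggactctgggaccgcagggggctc
KCNE3: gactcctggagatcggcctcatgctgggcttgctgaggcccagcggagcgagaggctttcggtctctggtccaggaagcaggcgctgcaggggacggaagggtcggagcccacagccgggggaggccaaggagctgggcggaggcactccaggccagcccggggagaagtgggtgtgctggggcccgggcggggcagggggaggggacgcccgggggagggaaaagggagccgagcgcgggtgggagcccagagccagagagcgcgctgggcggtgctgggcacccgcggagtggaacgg
DKK1 held the TATAAA motif just before its start, and KCNE3 held none of the 5 motifs in this window.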

How the data were processed

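RNA-seq libraries of HT-29 cells were analysed in 3 groups of 2, as the labels give them. Per the labels the reads were quantified with RSEM on hg19. For the aligner, the version of RSEM and strand, the sources used here state nothing. The authors deposited expected counts (estimated fragments per gene, not normalized), TPM and FPKM values for 27434 rows. Rows of joined genes held 6.02% to 6.62% of the counts, and rows without a symbol at most 0.0474%.

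Rounded expected counts entered edgeR 4.0.16 under R 4.3.3 (filterByExpr with minimum count 10, TMM, robust quasi-likelihood fit of 3 groups, Benjamini-Hochberg threshold 0.05). Log2 CPM used a prior count of 2. The members and gene lists were chosen with earlier results of these data known. Genes named were drawn from a rule that took the 12 with the largest separation on each side, in rows of 1 gene averaging 1 FPKM or more, HOX cluster genes, up to 4 genes per list and the genes at the edge of the set, which met 146 genes, of which the text gives 60. Some genes that met it are not reported here. GC content came from GENCODE v29 (GRCh38) for 97.4% of the genes tested. DESeq2 1.42.0, limma 3.58.1 (voom, and limma-trend on log2(FPKM + 0.1)), TPM, other scalings and filters, a GC trend fit and left-out libraries were alternatives. On simulated counts for the pooled contrast, over 13034 genes, 90.5% of 200 genes changed 4-fold were called, with 16 false calls. The simulation gave all groups of a gene the same spread and held no GC trend, unlike the measured libraries. It therefore does not show how often smaller changes would be called in these data. Intervals cover the spread between libraries only.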

Additional observations from a re-analysis of the deposited data

Results flagged for a closer look

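For 7 of the genes named in the report the effects of the KDs differed by the test of siHOXB-AS3 against siHOXA-AS3 (edgeR, adjusted p below 0.05). The log2 difference was -1.88 for HOXB-AS3 (adjusted p = 0.0291), which siHOXB-AS3 targets. It was -1.28 for ERBB3 (0.0275), -1.22 for CA12 (0.0476) and -1.03 for LITAF (0.0391), all lower in siHOXB-AS3. It was 1.73 for BMP2 (0.0287), 1.72 for MYL9 (0.0474) and 0.90 for PTPN14 (0.0467), all higher in siHOXB-AS3. Apart from HOXB-AS3 these genes lay on one side of siNT in all 4 KD libraries, which is the rule of the set and not a further result. The siHOXA-AS3 libraries of ERBB3 and BMP2 lay only just on that side.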

How the results depend on the processing

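In the pooled contrast 0 genes were called with edgeR, and also in a 2-group model, with RLE size factors, with library totals, with a mean FPKM of at least 1, with the replicate block and with limma-trend. DESeq2 called 56 (22 higher and 34 lower), voom with sample quality weights 56 (14 and 42), the table without a filter 24 (4 and 20), removal of the GC trend 395 (165 and 230), and removal of the GC trend with the replicate block, added after seeing the data, 116 (41 and 75). With a library left out the count ranged from 0 to 2792 (0 to 1352 higher and 0 to 1440 lower), and without siNT replicate 2 it was 1. Between the KDs 204 genes were called, against 787 with DESeq2, 3340 with the GC trend removed and 10 with the replicate block. Settings added there after seeing the data gave 706 without a filter, 93 with limma-trend and 2659 with the GC trend removed and the replicate block. With a library left out the count ranged from 0 to 4995. The cause was not tested. Whether the replicate numbers pair the libraries is not given in the labels. The deviations of same-numbered libraries correlated at -0.347, -0.139 and 0.15. These values cannot settle it, because the deviations followed GC content in siHOXA-AS3 and, less strongly, in siNT.

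The set of 1486 genes became 2292 with the GC trend removed (1216 higher and, within 1.5 times, 1076 lower) and 53 at a separation of at least 1.5-fold (19 higher and 34 lower). With a library left out, added after seeing the data, which loosens the rule, it ranged from 1759 to 4129 (722 to 1974 higher and 1022 to 2155 lower). TPM, library totals, RLE size factors, no filter and a mean FPKM of at least 1 kept each count within 1.5 times. For genes of the set the rule itself keeps the sign of the pooled fold change under most alternatives, so that sign is no measure of stability. Among the genes named, the sign turned for HOXA5, HOXA6 and HOXA7, which had overlapping groups and ranged with a library left out from -0.117 to 0.232, from -0.641 to 0.489 and from -0.125 to 0.187. With 2 siNT libraries shared by both KDs, a deviation of siNT enters both effects and no alternative here removes it.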
